A study of Mus musculus with 2 samples.

Results

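Chemokines and their receptors were followed in ureters of mouse embryos that had lost Smad4 from the ureteric mesenchyme. The genes were taken by name from the array's own gene names: Ccl, Cxcl, Ccr or Cxcr followed by a number, plus Cx3cl1, Xcl1, Xcr1, Ccrl2 and Ackr1 to Ackr4. This gave 62 probes of 53 genes, 34 ligand genes and 19 receptor genes, among 39429 non-control probes. No probe carried a name starting with Ackr, because the array uses older names, and Cxcr7 is the gene now called Ackr3. Of the 62 probes, 30 (48.4%) were well above background in all 4 channels of the 2 arrays, against 65.6% of all probes. A further 3 probes were well above background in 3 channels, 5 in 2 channels and 1 in 1 channel. The other 23 probes (37.1%), with processed signals of 5.38 to 36.5, were well above background in no channel. Of all probes, 71.6% were well above background in at least 1.

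RNA of E14.5 ureters of NMRI embryos was hybridised to 2 two-colour Agilent arrays. One channel of each array held RNA labelled Smad4cKO, genotype Tbx18(cre/+);Smad4(fl/fl), and the other RNA labelled control, genotype Tbx18(+/+);Smad4(fl/+). Cre is made from the Tbx18 locus, so that recombination follows Tbx18 expression in the ureteric mesenchyme, and the urothelium is not its target. The controls carried 1 floxed Smad4 allele and no Cre, and the Smad4cKO embryos also lacked 1 wild-type Tbx18 allele, so that the loss of Smad4 and of that allele cannot be told apart. Array 1 paired female RNAs, with the Smad4cKO in green (AlexaFluor555) and the control in red (AlexaFluor647). Array 2 paired male RNAs with the dyes exchanged. Sex and dye therefore cannot be told apart between the arrays. The labels do not give the number of embryos or litters in an RNA, so that p-values measure only the spread between these 2 arrays, which may be technical.

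Chemokines are small secreted proteins that bind G protein-coupled receptors and direct the movement of cells along their gradients. Homeostatic chemokines such as Cxcl12 are made by stromal cells during development, whereas inflammatory chemokines are induced in many cell types and attract leukocytes. Atypical receptors bind chemokines without G protein signalling and clear or store them. Smad4 is the shared partner of the SMAD proteins that carry BMP and TGFB signals.

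Ratios are given as log2 of the channel labelled Smad4cKO over the channel labelled control, turned by the dye labels, so that 1 is a doubling. The authors' deposited value table runs the other way on both arrays, control over Smad4cKO, while the sample titles name Smad4cKO first. The direction of every ratio therefore rests on the dye labels. Signals are the scanner software's processed values, whereas ratios come from a separate background correction and loess fit, so that the sign of the 2 can differ where a ratio is near 0. Of the 2 Smad4 probes, 1 had log2 ratios of -0.31 and -0.49 on arrays 1 and 2 and the other -0.69 and -0.14. Neither was called by limma, and their place relative to the deleted exon was not examined. All 9 smooth muscle markers tested had the labelled Smad4cKO as the brighter channel on each array (median log2 ratios 0.90 and 1.68), as did 20% of all tested probes. Of 13 neuron and glia markers tested, 11 (84.6%) were dimmer there on both arrays, as were 19.6% of all tested probes. The Y-linked genes Ddx3y and Eif2s3y were well above background only on the male array, but in the male pair Xist had signals of 44.6 and 183 on its 2 probes in the labelled Smad4cKO and 7.25 and 9.43 in the labelled control. The female pair had Xist signals of 1351 to 3366. No non-control spot was saturated, and 68.3 to 70.3% of these spots were well above background in a channel.

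No chemokine or receptor probe passed the test. The test took in probes with 1 labelled group well above background on each array: 34 of the 62 probes (54.8%, against 67.6% of all probes), from 29 of the 53 genes. These were 21 ligand and 8 receptor genes. With limma over all 26670 tested probes, 0 of 34 were called at an adjusted p under 0.05. The background was 0 probes brighter and 2 dimmer in the labelled Smad4cKO (0.0075%). None of the 9 smooth muscle markers was called either, and Myh11, with log2 ratios of 2.08 and 2.65, had a limma adjusted p of 0.0538. Such a test on 2 arrays can miss large differences, so that 0 calls do not show a lack of change. The smallest adjusted p among the 34 was 0.334, and 6 (17.6%) had an unadjusted p under 0.05, against 4.92% of all tested probes. By a rule of size with no test, at least 1.5-fold in 1 direction on both arrays, 0 of 34 were brighter (background 0.454%) and 0 were dimmer (background 0.51%). In 11 of 34 probes (32.4%) the labelled Smad4cKO was brighter on both arrays (background 20%), in 11 it was dimmer on both (background 19.6%), and in 12 (35.3%) the sign differed (background 60.3%). The median log2 ratio of the 34 probes was 0.02 on array 1 and -0.04 on array 2, against 0.00 on each array for all tested probes. Of the 34, 4 were well above background in fewer than 4 channels. Cxcl15, Ccl5 and Ccr9 entered through the labelled control and Ccr4 through the labelled Smad4cKO. Their direction was partly set by the filter, and all 4 are in the same-sign counts on the side of that group. Cxcl15 and Ccl5 are also among the 6 probes with an unadjusted limma p under 0.05. With an intensity trend and a robust prior, limma called Cxcl16 as brighter and Cxcl15, Ccl11 and Ccl5 as dimmer among the 34. Beside them it called 337 brighter and 456 dimmer among all 26670 tested probes. Below, each mean is over 2 arrays and followed by limma's moderated SE.

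**Figure D1:**
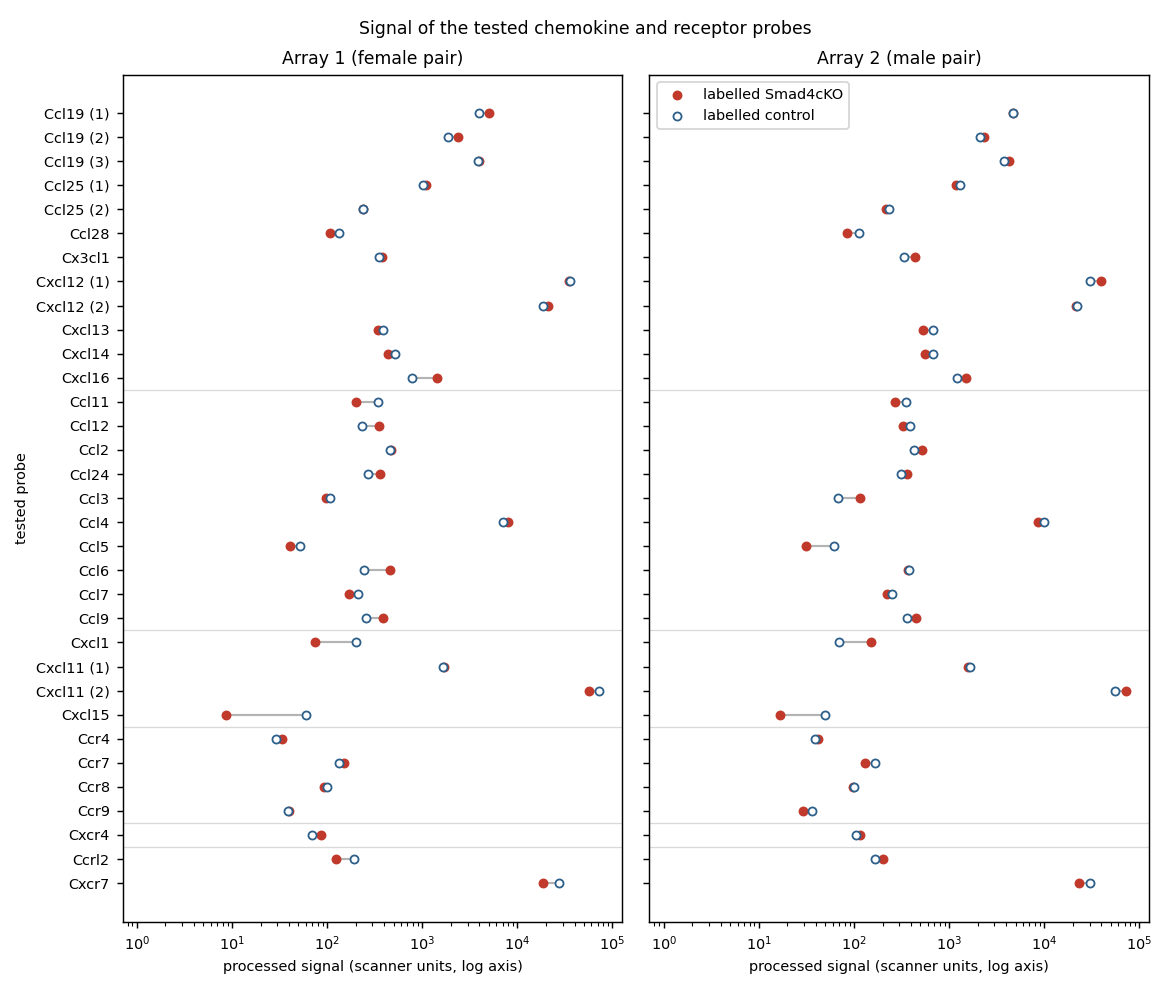
Processed signal (scanner units, log axis) of 33 tested chemokine and receptor probes on array 1 (female pair) and array 2 (male pair); filled red circles are the labelled Smad4cKO, open blue circles the labelled control, and grey lines group the probes by role. Most pairs nearly overlap, and Cxcl15 and Cxcl1 are spread widest; levels of different probes are not comparable.

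Cxcl16, listed here with the homeostatic chemokines, was brighter in the labelled Smad4cKO on both arrays. It is made as a transmembrane protein that can be shed, and binds Cxcr6. Its processed signals were 1433 in the labelled Smad4cKO and 785 in the labelled control on array 1, and 1505 and 1219 on array 2. The lower of the 2 labelled Smad4cKO signals lay above both control signals. Such a lack of overlap, here and below, also held for other members, among them Ccl28, Ccl24, Cx3cl1 and Ccl9. Its share over all tested probes was not counted, so that it sets no gene apart. The log2 ratios were 0.81 and 0.31, with a mean of 0.56 ± 0.17 (limma SE, n = 2 arrays). With limma the unadjusted p was 0.015 and the adjusted p 0.599. The probe lies at chr11:70267780-70267839 (minus strand) in build mm9, and its first 30 of 60 bases, shown to identify what was measured, were:
Cxcl16: tgtaaagttctaggttcaaccctcccacta
No annotation of mm9 was used here, so that the exon and UTR of this and the other probes are not given. The receptor Cxcr6 was not tested: 1 of its 2 probes was well above background in the green channel of each array and the other in none.

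Cxcl12, which guides migrating progenitors, nerves and vessels through Cxcr4, had 2 tested probes, neither called by limma. Its first probe had signals of 34704 and 36204 for labelled Smad4cKO and control on array 1 and of 39076 and 30162 on array 2, and log2 ratios of -0.15 and 0.49 (mean 0.17 ± 0.18). The second, 6201 bases away, had 20781 and 18596, then 21568 and 21901, with log2 ratios of 0.09 and 0.11 (mean 0.10 ± 0.13). The second probe had the same sign on both arrays and the first did not, and with median centring the second also differed in sign (-0.40 and 0.61). The Cxcl12 receptor Cxcr4 had signals of 86.8 and 68.7 on array 1 and of 115 and 104 on array 2. Its log2 ratio was 0.15 on each array (mean 0.15 ± 0.13), so that the labelled Smad4cKO was the brighter channel on both. With limma the adjusted p was 1 for these 3 probes.

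Cxcr7, the atypical receptor that binds and removes Cxcl12, was dimmer in the labelled Smad4cKO on both arrays. Its signals were 18836 and 27447 on array 1 and 23486 and 30589 on array 2, and the groups did not overlap. The log2 ratios were -0.69 and -0.15 (mean -0.42 ± 0.17, limma unadjusted p 0.0496, adjusted p 1). With median centring in place of loess they were -1.21 and 0.40, so that the direction on array 2 turned. The first 30 bases of its probe, at chr1:92111803-92111862 (plus strand, mm9), were:
Cxcr7: tggacatgtgtacagtagaatcttctgtgt
Ccrl2, an atypical receptor that presents chemerin, had signals of 125 and 191 on array 1 and of 202 and 168 on array 2. Its log2 ratios were -0.52 and 0.25, with the red channel brighter on both arrays.

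Cxcl13 and Cxcl14 were dimmer in the labelled Smad4cKO on both arrays, by similar amounts. Cxcl13, which attracts B cells through Cxcr5, had signals of 341 and 390 on array 1 and of 532 and 671 on array 2 (log2 ratios -0.17 and -0.31, mean -0.24 ± 0.13). Cxcl14, made by many epithelia and fibroblasts, had 436 and 515, then 552 and 675 (log2 ratios -0.23 and -0.30, mean -0.26 ± 0.13). For both genes the ranges of the 2 labelled groups overlapped across the arrays, and the order held only within each array. Ccl28, a chemokine of mucosal epithelia, had 106 and 135, then 84.6 and 112 (log2 ratios -0.18 and -0.28, mean -0.23 ± 0.13). Cx3cl1, a membrane-bound chemokine of neurons and endothelium, was on the other side, with 375 and 355, then 439 and 335, and log2 ratios of 0.06 and 0.37 (mean 0.21 ± 0.15). None of these 4 means was called by limma.

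Ccl19, which guides T cells and dendritic cells through Ccr7, had 3 tested probes with mean log2 ratios of 0.16 ± 0.16, 0.24 ± 0.13 and 0.12 ± 0.13. The lowest signal of these probes was 1881 and the highest 4989, and 2 of the 3 had the same sign on both arrays. Ccl19 belongs to a region of chromosome 4 with near-identical gene copies, so the source of this signal among copies is uncertain. Ccl25, the thymic and gut ligand of Ccr9, had 2 probes with mean log2 ratios of -0.02 ± 0.14 and -0.05 ± 0.13. Of the 12 tested probes listed here as homeostatic, 5 were brighter on both arrays, 4 dimmer and 3 differed in sign. Cxcl17 was well above background in no channel.

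**Figure D2:**
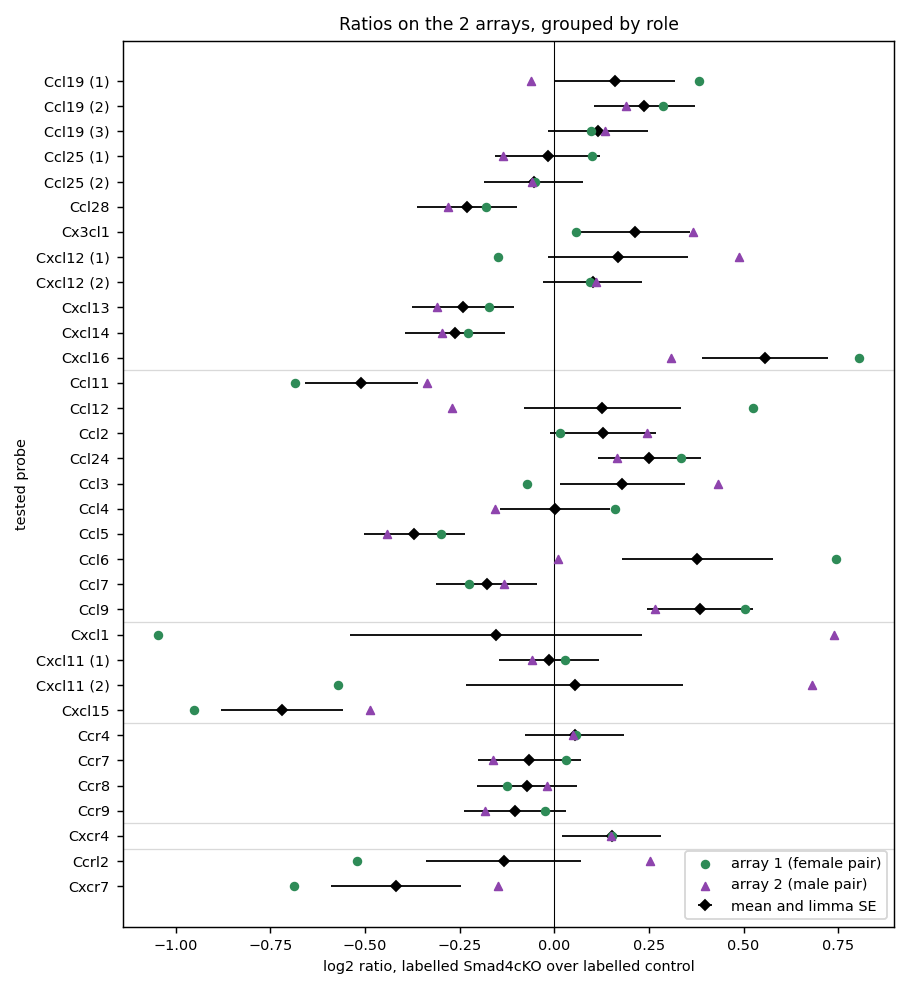
Log2 ratio of the labelled Smad4cKO over the labelled control for 33 tested probes, by role: green circles are array 1, purple triangles array 2, black diamonds the mean with limma's SE as bar. Cxcl16 and Ccl9 lie to the right and Cxcl15, Ccl11 and Cxcr7 to the left on both arrays, while the circles and triangles of Cxcl1 are at -1.05 and 0.74.

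Among the inflammatory CC chemokines, Ccl11 (eotaxin, the eosinophil attractant that binds Ccr3) was dimmer in the labelled Smad4cKO on both arrays. Its signals were 202 in the labelled Smad4cKO and 346 in the labelled control on array 1, and 269 and 353 on array 2. Both control signals lay above both labelled Smad4cKO signals. The log2 ratios were -0.69 and -0.33 (mean -0.51 ± 0.15, limma unadjusted p 0.014, adjusted p 0.586). The first 30 bases of its probe, at chr11:81876072-81876131 (plus strand, mm9), were:
Ccl11: taggagtaactgaggataatagcagcttat
Ccr3, its receptor, was well above background in no channel. Ccl24, another eosinophil attractant of the same receptor, was on the other side, with 362 and 270 on array 1 and 364 and 309 on array 2 (log2 ratios 0.34 and 0.17, mean 0.25 ± 0.14).

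The neighbours of Ccl11 on chromosome 11 had ratios of both signs. Ccl2, the main monocyte attractant through Ccr2, had 470 and 457 on array 1 and 520 and 430 on array 2 (log2 ratios 0.01 and 0.24). Ccl7, a monocyte attractant between Ccl2 and Ccl11, had 170 and 213, then 224 and 252 (log2 ratios -0.22 and -0.13). Ccl12 had 352 and 231, then 332 and 389, with log2 ratios of 0.52 and -0.27, brighter in green on both arrays. The 4 probes in this row thus held 1 brighter on both arrays, 2 dimmer and 1 that differed in sign. Ccl8 and Ccl1, the next 2 genes, were well above background in no channel.

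In the second row of CC genes on that chromosome, Ccl9 and Ccl6, macrophage-attracting chemokines made by myeloid cells, were brighter in the labelled Smad4cKO. Ccl9 had signals of 388 and 257 on array 1 and of 454 and 362 on array 2, with log2 ratios of 0.50 and 0.27 (mean 0.39 ± 0.14, limma adjusted p 0.853). Ccl6 had 457 and 242, then 369 and 378, with log2 ratios of 0.75 and 0.01 (mean 0.38 ± 0.20), so that only on array 1 was its ratio far from 0. On array 2 it was -0.04 from the processed signals and -0.01 without background subtraction. Of 17 macrophage markers tested, 9 (52.9%) were brighter on both arrays and 0 dimmer, against 20% and 19.6% of all tested probes. The median log2 ratios of these markers were 0.37 and 0.02. Their summed signal was 26189 against 19642 on array 1 and 28211 against 29065 on array 2, and of the 20 genes on the array Fcgr1 alone was well above background in no channel. The part of macrophage RNA in the ratios of Ccl6, Ccl9 and Cxcl16 was not tested. In such whole-tissue RNA, fewer cells of a type and less RNA per cell cannot be told apart.

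Ccl5 (RANTES, made by lymphocytes and other cells) was dim and entered the test through the labelled control. Its signals were 40.3 and 51.6 on array 1 and 31.1 and 61.1 on array 2, with log2 ratios of -0.30 and -0.44 (mean -0.37 ± 0.13, limma adjusted p 0.853). It was well above background in 3 of 4 channels. From the processed signals its mean was -0.67. Ccl3 and Ccl4, macrophage inflammatory proteins, differed in sign between the arrays: Ccl3 had 97.9 and 108, then 117 and 68.5 (log2 ratios -0.07 and 0.43), and Ccl4 had 7884 and 7005, then 8673 and 9893 (log2 ratios 0.16 and -0.16). Of the 10 inflammatory CC probes tested, 4 were brighter on both arrays, 3 dimmer and 3 differed in sign. The untested ones, Ccl1, Ccl8, Ccl17, Ccl20, Ccl22 and Ccl26, were well above background in no channel.

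**Figure D3:**
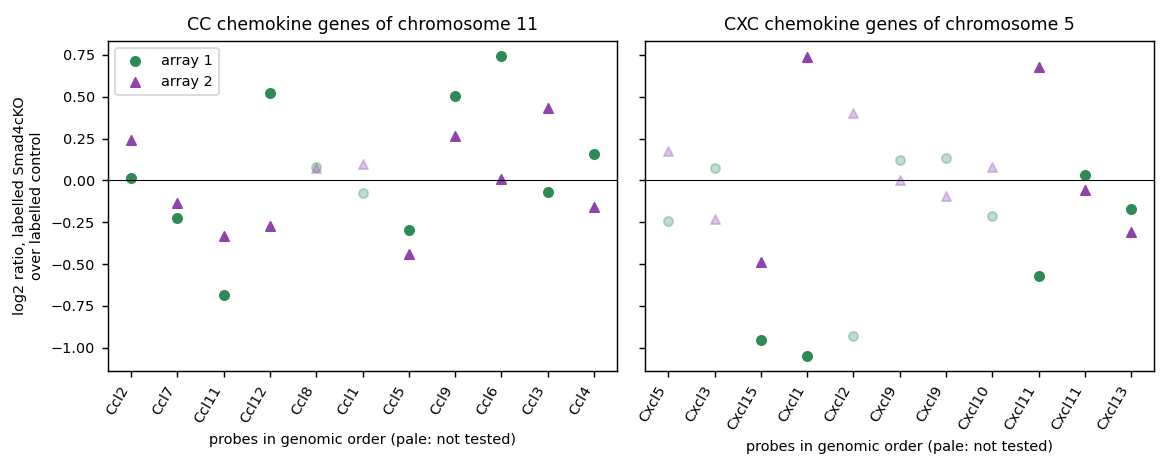
Log2 ratio of the labelled Smad4cKO over the labelled control for the CC chemokine probes of chromosome 11 (left) and the CXC chemokine probes of chromosome 5 (right), in genomic order and not to distance; circles are array 1, triangles array 2, pale symbols were not tested. Neighbouring genes have ratios of both signs, as Ccl7 and Ccl11 below 0 beside Ccl2 above it.

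Cxcl15 was well above background in the labelled control of both arrays and in the labelled Smad4cKO of neither. Cxcl15 (lungkine) is an epithelial chemokine known from the lung, where it attracts neutrophils. Its signals were 8.64 in the labelled Smad4cKO and 60.3 in the labelled control on array 1, and 16.9 and 49.8 on array 2. Its ratios are therefore set against a channel at background, and the probe entered the test through the group in which it was brighter. The log2 ratios were -0.95 and -0.49 (mean -0.72 ± 0.16, limma unadjusted p 0.00428, adjusted p 0.334). On the mean of the 2 arrays the labelled control was 1.65-fold brighter, from mean normalized log2 signals of 7.54 and 6.82. This restates the mean ratio and is not a lower bound. These ratios are drawn towards 0 for dim probes by the offset of 50 added in the background correction. From the scanner's processed signals limma called it (adjusted p 0.0025), against the same background-level channel, so that this call supports no size of the difference. Its first 30 bases, at chr5:91231948-91232007 (plus strand, mm9), were:
Cxcl15: agttttgaaagaggtgttactgatcatgtt

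Cxcl1 (KC, a neutrophil attractant through Cxcr2) had opposite ratios on the 2 arrays. Its signals were 74.3 in the labelled Smad4cKO and 200 in the labelled control on array 1, and 150 and 69.1 on array 2. The red channel was the brighter one on both arrays, and the labelled groups overlapped. The log2 ratios were -1.05 and 0.74 (mean -0.15 ± 0.39), and it was the 1 tested member (2.94%) at 1.5-fold or more in opposite directions, against a background of 1.33%. Cxcl2, its close relative and the next gene on chromosome 5, had 11.4 and 50.3, then 24.9 and 9.51, with log2 ratios of -0.93 and 0.40. Cxcl2 was well above background in the labelled control of array 1 only, and was not tested. The first 30 bases of the Cxcl1 probe, at chr5:91321845-91321904 (plus strand, mm9), were:
Cxcl1: agaagtgcagagagatagagtttagtatta

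Immediate early genes, which are transcribed within minutes of a stimulus such as handling of a tissue, are set beside Cxcl1. Of 17 such genes, 15 were tested; 13 of them (86.7%) differed in sign between the arrays, as did 60.3% of all tested probes, with median log2 ratios of -0.72 on array 1 and 0.42 on array 2. Fos, for example, had -1.13 and 0.62 and Egr1 had -1.01 and 0.43. This list and these examples were chosen after their values were seen and support nothing. Sex, dye and any difference between the dissections change together here, and their part in the Cxcl1 ratio was not tested.

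**Figure D4:**
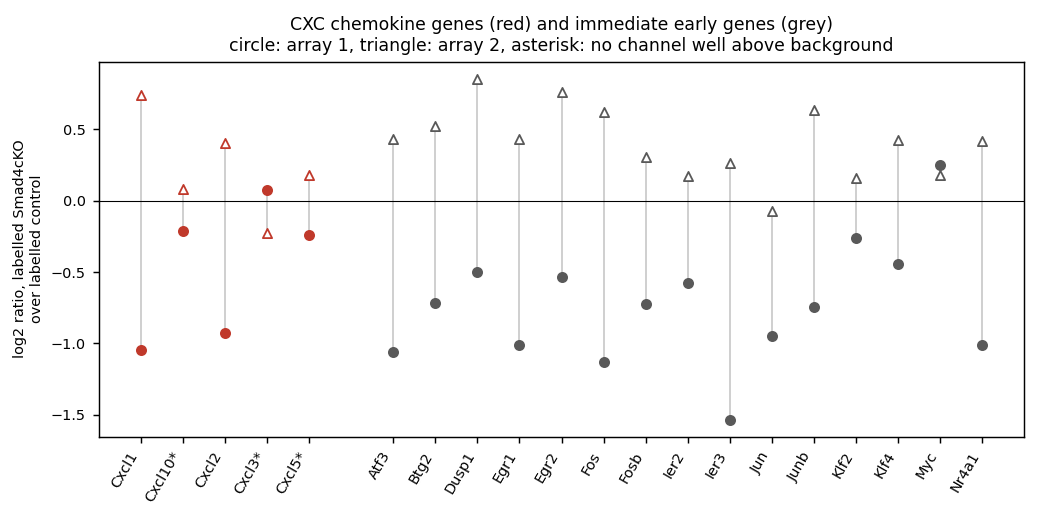
Log2 ratio of the labelled Smad4cKO over the labelled control for 5 CXC chemokine genes (red) and the 15 tested immediate early genes (grey); circles are array 1, triangles array 2, and an asterisk marks genes with no channel well above background. Cxcl1 and Cxcl2 lie below 0 on array 1 and above 0 on array 2, as do 13 of the grey genes.

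The upstream sequences of Cxcl1, Cxcl2 and Cxcl3 share a stretch that matches 1 form of the motif bound by NF-kB, the factor that induces these genes in inflammation. Among 7 motifs searched on both strands in the 250 bases before each start (RefSeq, GRCm38.p6), this form was picked for display after its matches were seen. It was in 28 of 32851 promoters (0.0852%) and in 4 of the 42 promoters matched to 38 of the genes, those of Cxcl1, Cxcl2, Cxcl3 and Ccr3. A looser NF-kB form with 1 free base, which includes the first, was in 0.356% of all promoters and in those 4 genes. The SMAD palindrome GTCTAGAC was in 0.167% of all promoters and in 0 of the 42. The short SMAD box CAGAC was in 42.2% of all and in 15 of 42 (35.7%), and CAGACA, which contains it, in 17.1% and 5 of 42. The GC-rich SMAD motif GGCGCC was in 9.59% of all and 2 of 42, and an interferon response motif in 2.98% and 3 of 42. A match describes letters only and shows no binding. The promoters of Cxcl1 and Cxcl2, described above, are printed with the motif in capitals, for chr5:90890995-90891244 and chr5:90903649-90903898 (GRCm38.p6, plus strand), where it begins 71 and 97 bases before the start:
Cxcl1 promoter: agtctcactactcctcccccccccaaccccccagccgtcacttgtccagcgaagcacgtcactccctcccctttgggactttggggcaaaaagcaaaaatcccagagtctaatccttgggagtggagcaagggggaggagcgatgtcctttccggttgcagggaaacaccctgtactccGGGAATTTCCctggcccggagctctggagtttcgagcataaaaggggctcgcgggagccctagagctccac
Cxcl2 promoter: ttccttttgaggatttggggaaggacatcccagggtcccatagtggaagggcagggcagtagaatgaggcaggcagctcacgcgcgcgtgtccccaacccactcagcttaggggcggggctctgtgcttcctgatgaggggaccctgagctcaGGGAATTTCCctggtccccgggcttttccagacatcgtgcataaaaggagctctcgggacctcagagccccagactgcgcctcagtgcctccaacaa
In Cxcl3 the motif begins 73 bases before the start, and the Cxcl3 probe was well above background in no channel.

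The 2 probes of Cxcl11, an interferon-induced ligand of Cxcr3 and Cxcr7, disagreed although their starts are 73 bases apart. The brighter one had signals of 57029 and 72072 on array 1 and of 73244 and 55732 on array 2, with log2 ratios of -0.57 and 0.68. The other had 1688 and 1662, then 1591 and 1645, with log2 ratios of 0.03 and -0.06. The red channel of the brighter probe was higher on both arrays, and the other probe stayed near 0. A stretch of 20 bases in the brighter probe, picked after its values were seen and in capitals below (bases 16 to 45 are shown, beside bases 1 to 30 of the other), was also in 3 other probes on the same strand:
Cxcl11 brighter probe: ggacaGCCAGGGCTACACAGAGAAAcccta
Cxcl11 other probe: tatacaccttaatttcagcacttgaaaggc
Those 3 probes had processed signals of 40660 to 98906 (median 69698). Their median log2 ratios were -0.90 on array 1 and 0.96 on array 2, and all 3 were negative on array 1 and positive on array 2. In 2 probes with the reverse complement of the stretch the median signal was 2509. The part of the shared stretch in the brighter probe's signal and ratio was not tested, so that its signal is not read as a level of Cxcl11. The other probe was not searched for stretches shared with further probes, so that its signal and ratio are not read as those of Cxcl11 either. Cxcl9 and Cxcl10, the other interferon-induced ligands of Cxcr3, and Cxcl3, Cxcl5 and Xcl1 were well above background in no channel. Of the 4 inflammatory CXC probes tested, 0 were brighter on both arrays, 1 was dimmer and 3 differed in sign.

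**Figure D5:**
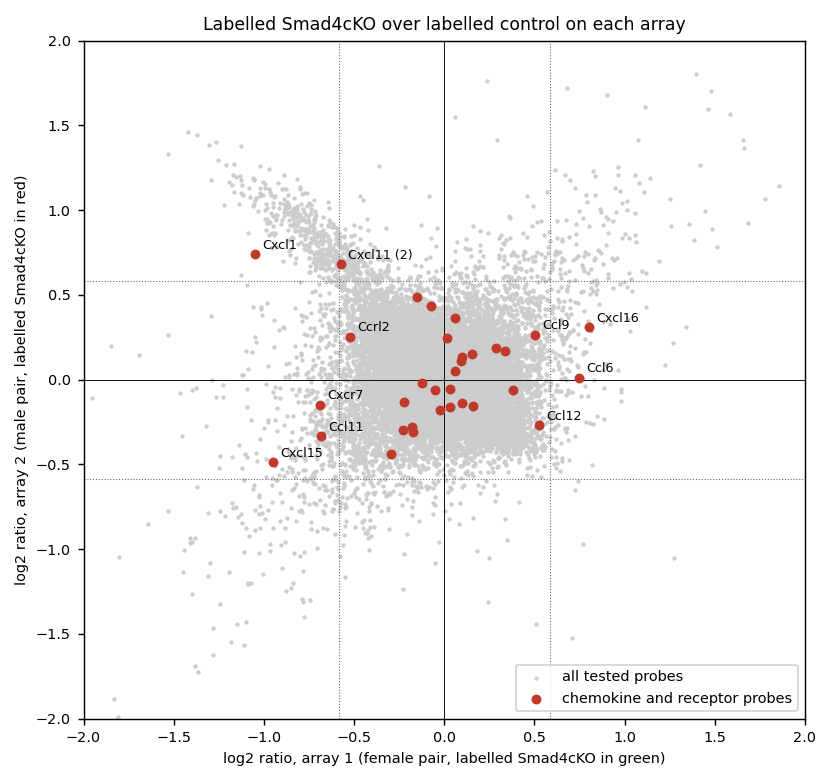
Log2 ratio of the labelled Smad4cKO over the labelled control on array 1 (x) against array 2 (y) for all tested probes (grey) and 33 tested chemokine and receptor probes (red); dotted lines mark 1.5-fold, and 13 grey probes lie outside the plotted range. Cxcl1 lies in the upper left, where the red channel was brighter on both arrays; Cxcl11 (2) is its brighter probe.

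Leukocyte chemokine receptors were dim or close to 0 in ratio. Ccr7, the receptor of Ccl19, had 149 and 135 on array 1 and 132 and 168 on array 2 (log2 ratios 0.03 and -0.16). Ccr8 had 93.1 and 99.97, then 98.8 and 101 (-0.12 and -0.02) on 1 probe, while its second probe was well above background in no channel. With limma the adjusted p was 1 for both. Ccr4, a receptor of T helper cells, had 33.4 and 28.8, then 41.8 and 39.3 (0.06 and 0.05). Ccr9 had 40.01 and 38.5, then 29.3 and 35.9 (-0.02 and -0.18). Both were well above background in 3 channels.
The other receptor genes were not tested: Ccr6 and Ccr10 were well above background in 2 channels, the green one of each array, Cxcr2 in both channels of array 1 only, and Ccr1, Ccr2, Ccr3, Cxcr1, Cxcr3, Cxcr5 and Xcr1 in none. Of 14 lymphocyte markers on the array, 5 were tested and 6 were well above background in no channel, among them Cd3g, Cd8a and Ms4a1. The 5 tested, Cd3e, Cd4, Cd79b, Lck and Nkg7, were each well above background in all 4 channels on 1 probe.

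The array's older names held further atypical receptors outside the name rule. Ccrl1, now Ackr4, clears Ccl19, Ccl21 and Ccl25. Its first probe had signals of 309 in the labelled Smad4cKO and 86.1 in the labelled control on array 1, and 237 and 113 on array 2. The groups did not overlap, and the log2 ratios were 1.39 and 0.82 (mean 1.10 ± 0.17, limma adjusted p 0.163). Its second probe had smaller log2 ratios of 0.49 and 0.19. Darc (now Ackr1), which holds chemokines on venous endothelium and red cells, had log2 ratios of -0.29 and -0.13, and Ccbp2 (now Ackr2), which clears inflammatory CC chemokines, had -0.17 and -0.40 on its tested probe. Ccl21a, the second ligand of Ccr7, had 0.48 and 0.38, and its near-identical copy Ccl21b 0.58 and -0.01, so that the source of this signal among copies is uncertain as for Ccl19. Pf4, a platelet chemokine, had 0.33 and 0.32, and Gpr182 had 0.67 and 0.25. Of the 11 family genes tested outside the rule, 5 (45.5%) were brighter on both arrays, 2 (18.2%) dimmer and 4 differed in sign. The backgrounds were 20% brighter and 19.6% dimmer. Among these genes 1, Ccrl1, was past 1.5-fold on both arrays (background 0.454% brighter).

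Of 42 genes downstream of the receptors tested, 14 (33.3%) were brighter on both arrays, 4 (9.52%) dimmer and 24 differed in sign, against backgrounds of 20% and 19.6%, with median log2 ratios of 0.07 and 0.05, and none was called by limma or past 1.5-fold on both arrays. Prkcd, a protein kinase C, had 0.52 and 0.43. Adrbk2, a receptor kinase that ends signalling, had -0.35 and -0.27 on the probe of higher signal, which was counted, and -0.34 and -0.35 on the other. Of 17 NF-kB and interferon genes tested outside the chemokines, 4 (23.5%) were brighter, 2 (11.8%) dimmer and 11 differed in sign, against the same backgrounds. Irf7, an interferon regulator, had 0.33 and 0.30. Irf7 entered the test through the labelled Smad4cKO alone, with signals of 54.4 and 25.8 on array 1 and of 56.99 and 36.9 on array 2, so that its direction was partly set by the filter.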

How the data were processed

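The deposited scanner files give each channel of every spot an intensity, per the file headers. The submitters' processing notes name Agilent Feature Extraction 10.7.3.1. Its processed signals had background taken off, dyes balanced with LOWESS and low values replaced by surrogates, per the file headers. The file headers also name a deposited log10 ratio of the dyes and a p-value for it, which were not used in a test here. The authors' deposited value table was read as a score, a signed fold whose direction was found by setting it against the processed signals (correlation 0.989 and 0.988 on arrays 1 and 2, column medians of 1). Its software and any centring were not stated. Per the labels' protocols, each channel began from 200 ng of RNA and 1 round of amplification.

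For the main values, normexp (offset 50) was applied to the mean signals and loess within arrays followed, with the 1377 control spots of 44397 at weight 0 (limma 3.58.1, statmod 1.5.0, R 4.3.3, with files read by the package data.table, version 1.17.8). Spots marked as outliers (237 and 221) were left out, spots of a probe averaged, and a probe counted as well above background where at least 0.5 of its spots were. Limma (lmFit and eBayes) set each probe's log2 ratios against 0 (Benjamini-Hochberg over 26670 probes, threshold 0.05, 1 residual and 5.04 prior degrees of freedom). It was also run on simulated ratios drawn from its own fitted spread, with no dye or sex effect. That run cannot show how the test holds on these arrays. The number of arrays limits the precision. All probes of the name rule are accounted for, with values for genes that had a tested probe, except 1 tested gene that is not reported here; up to 4 genes of each other list are named, those with the largest smaller ratio of the 2 arrays, besides genes named for a family role. Sequences were read from the scanner files (mm9) and RefSeq promoters (GRCm38.p6); 59 of 62 probes matched a RefSeq symbol by accession. Figures were drawn with matplotlib 3.10.9. Members, lists and alternatives were chosen with earlier results of these data known. The alternatives tried were 10 changes of background correction, normalization, source, filter, outlier spots, probe per gene and variance model, plus each array alone.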

Additional observations from a re-analysis of the deposited data

Results flagged for a closer look

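In 12 of the 34 tested chemokine and receptor probes the log2 ratio of the labelled Smad4cKO over the labelled control had one sign in the female pair (array 1) and the other in the male pair (array 2). This was 35.3% of them, against 60.3% of all tested probes. Each sex is 1 array, and sex and dye change together, so the difference was not tested. In 5 probes the red channel was brighter on both arrays. Cxcl1 had -1.05 and 0.74, and the brighter Cxcl11 probe -0.57 and 0.68. Ccrl2 had -0.52 and 0.25, 1 Cxcl12 probe -0.15 and 0.49, and Ccl3 -0.07 and 0.43. In 7 the green channel was brighter on both. Among these, Ccl12 had 0.52 and -0.27 and 1 Ccl19 probe 0.38 and -0.06. Ccl4 had 0.16 and -0.16, 1 Ccl25 probe 0.10 and -0.14, Ccr7 0.03 and -0.16, and the other Cxcl11 probe 0.03 and -0.06. Past 1.5-fold in opposite directions was 1 of the 12, Cxcl1, in the main setting (354 of all tested probes), 2 without background subtraction (368 of all) and 3 with median centring (1739 of all).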

How the results depend on the processing

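Over 10 alternatives, the 22 probes with the same sign on both arrays kept the sign of their mean in 212 of 212 values. In 17 of these, from 9 probes, the 2 arrays no longer shared a sign (Cxcr7 with median centring, for example, at -1.21 and 0.40). The alternatives of filter, probe per gene and variance model reused the main ratios, so that no sign could change under them. Ccl25 (1 probe) and Ccl4, whose means lay near 0, turned from -0.02 and 0.0020 to 0.0062 and -0.0097 with the processed signals and to 0.013 and -0.0025 with the authors' values. Limma called 1 member, Cxcl15, as dimmer from the processed signals (adjusted p 0.0025), and 1 member as brighter and 3 as dimmer with an intensity trend and robust prior (adjusted p 0.0112 for Cxcl16, 0.0195 for Ccl11, 0.0354 for Ccl5 and 3.2e-07 for Cxcl15); it called 0 members under the other 8. Over all probes, limma called 0 brighter and 2 dimmer in the main setting, 1 and 5 without background subtraction, 36 and 36 with an offset of 10, and 147 and 163 from the processed signals. It called 0 dimmer after median centring, 65 and 60 with the authors' values, 1 and 5 with both channels of both arrays above background, 4 dimmer with no filter, 1 dimmer with the brightest probe per gene, and 337 and 456 with the trend. The 1.5-fold rule held 1 dimmer member, Cxcl15, with an offset of 10, the processed signals, median centring and the authors' values. On 1 array alone, without replicate 1 or 2, it held 2 brighter members each and 0 to 4 dimmer; those have no test. The cause of these differences was not tested. Signals near background limit 23 of the 62 probes. The limma test of within-array ratios is itself the paired comparison. No paired analysis was possible beyond it, because a further block by array would leave no residual degree of freedom.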
